A study of Mus musculus with 15 samples.

Results

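Heat shock factor 1 (HSF1) binding in mouse brown adipose tissue (BAT) was compared between room temperature and 40 min of cold. Peaks from 2 wild type libraries at room temperature and 2 wild type libraries at 40 min of cold (titled replicates 1 and 2) on chromosomes 1 to 19, X and Y were merged wherever they overlapped by 1 bp or more, which gave 2582 regions. Merging all 10 HSF1 libraries with a peak list gave 18176 regions. A region called in all 4 libraries is termed kept, one with a peak in each 40 min library but none at room temperature newly called, and the converse lost.

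All 4 libraries came from whole BAT of mice labelled as wild type, and no transgene or drug is labelled. The series has 15 samples, 10 of them HSF1 ChIP libraries in 5 pairs and the other 5 titled as inputs, 1 of which was put in no group because its title and treatment labels differ. Outside the comparison are pairs from TXNIP knockout mice at 40 min, from wild type mice at 4 h of cold, and another wild type pair at 40 min, termed second. Per the labels, tissue was crosslinked with DSG and formaldehyde and precipitated with 1 HSF1 antibody. The sources used here do not give age, sex, cooling temperature or number of animals. No label says whether replicates are separate animals, and the spread behind each p-value is therefore between libraries and possibly technical. Whole tissue holds several cell types, and binding in more cells and more binding per cell cannot be told apart.

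HSF1 is held inactive by chaperones in unstressed cells. When misfolded proteins draw the chaperones away, it forms trimers that bind heat shock elements, inverted repeats of the unit GAA, and turns on chaperone genes. BAT is the depot that burns fuel for heat, with UCP1 uncoupling its mitochondria, and cold activates it through the sympathetic nerves.

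Promoter sequences are shown for 2 leading kept regions, 3 newly called regions and the 1 lost region that lay in a promoter. They are from RefSeq (GRCm38.p6) and run from 250 bases before to 20 bases after the annotated gene start, on the strand of the gene. Capitals mark 2 facing units (GAANNTTC or TTCNNGAA), and 3 alternating units (GAANNTTCNNGAA or its reverse complement TTCNNGAANNTTC) contain overlapping facing pairs. Both strands were searched.
Hspe1, kept, chr1:55087898-55088167, plus strand: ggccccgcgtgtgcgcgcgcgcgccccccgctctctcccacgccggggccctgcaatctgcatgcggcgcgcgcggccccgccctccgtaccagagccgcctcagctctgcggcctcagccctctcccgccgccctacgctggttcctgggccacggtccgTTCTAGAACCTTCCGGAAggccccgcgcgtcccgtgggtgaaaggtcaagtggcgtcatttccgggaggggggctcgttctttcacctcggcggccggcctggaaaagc
Hspa1b, kept, chr17:34959219-34959488, minus strand: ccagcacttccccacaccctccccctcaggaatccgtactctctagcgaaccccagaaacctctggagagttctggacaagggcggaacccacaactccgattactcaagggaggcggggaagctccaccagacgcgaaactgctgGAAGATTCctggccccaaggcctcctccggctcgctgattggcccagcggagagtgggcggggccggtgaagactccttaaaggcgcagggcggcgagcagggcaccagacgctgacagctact
Dnajb6, newly called, chr5:29735648-29735917, plus strand: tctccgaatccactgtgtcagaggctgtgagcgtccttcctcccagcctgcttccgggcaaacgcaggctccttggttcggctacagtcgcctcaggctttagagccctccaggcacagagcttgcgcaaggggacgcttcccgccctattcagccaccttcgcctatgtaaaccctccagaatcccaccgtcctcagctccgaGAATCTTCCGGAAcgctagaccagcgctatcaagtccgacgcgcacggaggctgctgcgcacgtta
Vps52, newly called, chr17:33955632-33955901, plus strand: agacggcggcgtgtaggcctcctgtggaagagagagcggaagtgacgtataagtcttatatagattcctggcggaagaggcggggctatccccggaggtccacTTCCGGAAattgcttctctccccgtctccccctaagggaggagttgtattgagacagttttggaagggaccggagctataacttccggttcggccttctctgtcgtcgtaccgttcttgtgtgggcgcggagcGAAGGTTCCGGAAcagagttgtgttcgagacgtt
Mboat2, newly called, chr12:24831349-24831618, plus strand: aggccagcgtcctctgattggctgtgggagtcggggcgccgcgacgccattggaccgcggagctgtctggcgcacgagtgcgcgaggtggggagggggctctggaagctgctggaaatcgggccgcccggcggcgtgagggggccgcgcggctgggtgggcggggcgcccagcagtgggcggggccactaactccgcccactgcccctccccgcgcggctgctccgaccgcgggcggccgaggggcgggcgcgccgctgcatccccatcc
Pik3r2, lost, chr8:70776693-70776962, minus strand: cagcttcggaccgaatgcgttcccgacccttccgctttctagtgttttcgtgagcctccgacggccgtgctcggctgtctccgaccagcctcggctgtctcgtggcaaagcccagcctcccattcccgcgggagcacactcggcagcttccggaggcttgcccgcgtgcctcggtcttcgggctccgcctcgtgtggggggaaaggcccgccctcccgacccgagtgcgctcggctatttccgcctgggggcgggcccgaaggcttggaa
The Hspe1 stretch held 2 overlapping elements of 3 units, of which the nearer was centred 42 bp from the summit. The Dnajb6 and Vps52 stretches each held 1, centred 18 and 32 bp from the summit. The Vps52 summit lay 24 bp after the gene start, just past the printed bases. Of 14 newly called regions in a promoter, only those at Dnajb6 and Vps52 held an element of 3 units, so the 3 shown are a selection. Hspa1b held a single facing pair in these bases, and Mboat2 and Pik3r2 held none of these letters.

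The lists at 40 min were longer. They held 2287 and 1670 peaks, against 919 and 1269 at room temperature, so the groups did not overlap. On a log2 scale the means were 10.93 ± 0.32 at 40 min and 10.08 ± 0.33 at room temperature (SD, n = 2 each). The difference of 0.86 gave p = 0.333 in a two-sided exact permutation test, the smallest that 2 libraries against 2 can give. The highest fold enrichment, the authors' ratio of signal at a summit to local background, was 194 and 193 at room temperature and 400 and 328 at 40 min. Peaks with a fold of 20 or more numbered 82 and 87 at room temperature and 223 and 178 at 40 min. The median fold of all peaks did not separate the groups, with 7.15 and 6.64 at room temperature and 7.01 and 7.79 at 40 min. Total depth is not in the lists. Fragments at each summit and in its background were recovered from each peak's fold and p-value, with a whole number of fragments at every summit of the 4 libraries. The most common background was 3.19 and 4.12 fragments at room temperature and 3.14 and 2.59 at 40 min. A peak at that background needed at least 14 and 15 fragments to be listed at room temperature, and 12 and 11 at 40 min. The part of depth and input in the difference between the lists was not tested.

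Of the 2582 regions, 756 were kept (29.3%), 409 were newly called (15.8%) and 5 were lost (0.194%). Of 800 regions called in both room temperature libraries, 99.4% had a peak in at least 1 library at 40 min. Of 1483 regions called in both 40 min libraries, 72.4% had a peak in at least 1 library at room temperature. Another 318 regions had peaks in 3 libraries, both at 40 min and 1 at room temperature, 272 of them with room temperature replicate 2 and 46 with replicate 1. A further 801 regions were called in a single 40 min library and nowhere else among the 4, mostly in replicate 1 (648). With all lists cut to the 919 strongest peaks by −log10 p, 603 regions were kept, 95 newly called and 57 lost. Of those 57, 56 had a 40 min peak in the full lists. Leaving out room temperature replicate 2 gave 681 newly called regions, and leaving out 40 min replicate 2 gave 1058.

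**Figure D1:**
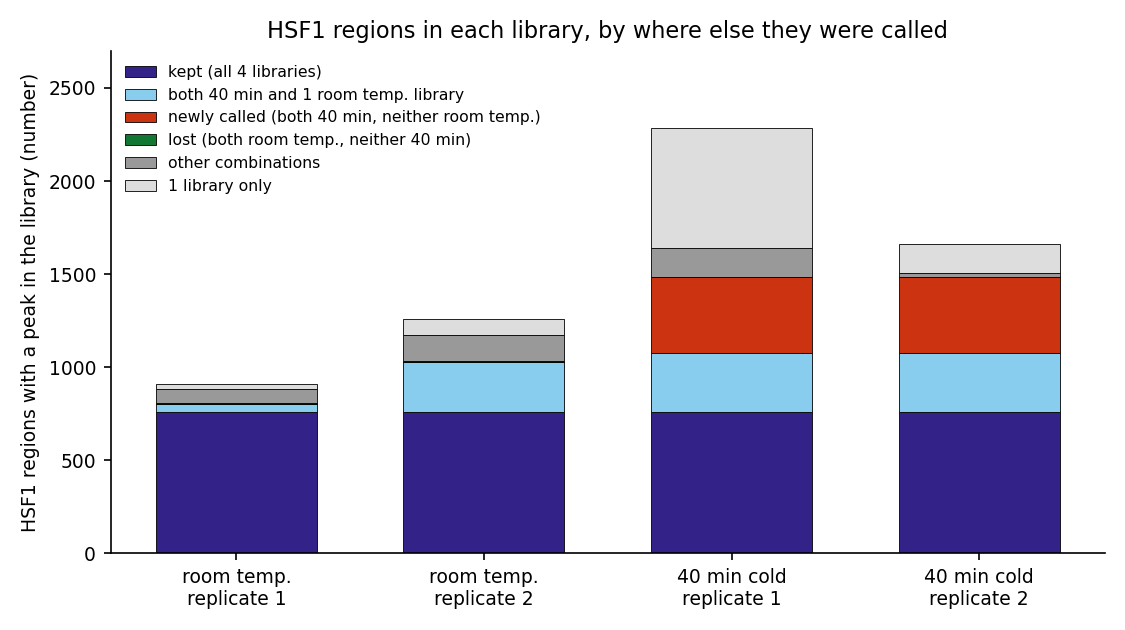
Number of HSF1 regions with a peak in each of the 4 libraries (bars), divided by the other libraries in which the same region was called. Each bar holds the same 756 kept regions, both 40 min bars hold the 409 newly called regions, and the 5 lost regions form a line barely visible at room temperature.

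The kept regions with the strongest peaks lay mostly at genes of chaperones and their partners. The leading one, at chr1:55087240-55089307, lay at the shared promoter of the divergent genes Hspd1 and Hspe1, which encode the mitochondrial chaperonin and its cofactor. At its summit, 873 and 1046 fragments were counted at room temperature and 1842 and 1313 at 40 min, above the room temperature counts in both libraries. Another 8 of the leading kept regions lay near Uspl1, Hsp90ab1, Dnaja1, Hsp90aa1, Hspa8, Hspa1b, St13 and Hsph1, each within 1000 bp of a gene end. Of these genes, Uspl1 is listed below under ubiquitin stress genes. In the 9 regions named here both 40 min folds were above both room temperature folds, as in 603 of all 756 kept regions (79.8%). Fragments at the summit also separated the groups at Hsp90ab1 and Hspa8. They overlapped at Uspl1 (665 and 803, then 933 and 747), Dnaja1, Hsp90aa1, Hspa1b, St13 and Hsph1.

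Kept regions at gene ends included many at genes of protein folding and disposal. Kept regions lay within 1000 bp of an end of 252 of 21887 protein-coding genes (1.15%), and of 47 of the 118 members (39.8%) of 8 lists covering chaperones, co-chaperones and ubiquitin stress genes. Newly called regions lay near 58 genes (0.265%), 3 of them among the 118 members (2.54%), and the lost regions near 1 gene (0.00457%), outside these lists. Of the 214 kept regions near a gene end, 45 (21%) lay at a member of these lists, and so did 3 of the 52 newly called ones (5.77%). The lists were written with earlier results of these libraries known, so these shares are a description.

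HSP70 chaperones and their partners had kept regions at 10 of 20 members. Hspa8, the constitutive cytosolic HSP70, had folds of 112 and 97.4 at room temperature and 162 and 154 at 40 min. The inducible Hspa1b had 111 and 102, then 171 and 132, and its near-identical copy Hspa1a had 81.3 and 96.1, then 139 and 123, although the origin of a read between these copies is uncertain. For Bag3, an HSP70 partner in selective autophagy, folds were 16 and 27.7 at room temperature and 62.8 and 45.1 at 40 min, a log2 difference of 1.34 and the largest of this list. Its fragments at the summit overlapped between the groups, with 96 and 211 at room temperature and 279 and 161 at 40 min. For Hspbp1 (18.3 and 20.7, then 23.8 and 21.4) the groups were nearly level, and for Hspa4 (7.25 and 9.86, then 12.8 and 7.51) they overlapped.

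HSP90 chaperones and co-chaperones had kept regions at 10 of 18 members and no newly called one. Hsp90ab1, the constitutive HSP90, had folds of 121 and 112 at room temperature and 224 and 208 at 40 min. The inducible Hsp90aa1 had 121 and 118, then 179 and 134. Fkbp4, an immunophilin partner of HSP90, had 70.8 and 69.3, then 137 and 118. Only Ppid, another immunophilin, had overlapping groups in this list, with 11.9 and 11.5 against 17.6 and 10.9. Of all kept regions, 79.8% had both 40 min folds above both room temperature folds.

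HSP40 co-chaperones, which hand clients to HSP70, had kept regions at 5 of 17 members (Dnaja1, Dnaja4, Dnajb1, Dnajb2 and Dnajb4). All 5 had both 40 min folds above both room temperature folds, beside 79.8% of all kept regions. The region counted for Dnajb4 lay 560 bp from its end and 570 bp from the start of Fubp1. A separate kept region 18 bp from an annotated Dnajb4 start, inside the gene, had 9.77 and 7.61 at room temperature and 17.9 and 15 at 40 min, with overlapping ranks. Dnaja4 had 39.1 and 38.9 at room temperature and 92.5 and 63.2 at 40 min. Another 2 members, Dnajb5 and Dnajb6, were near newly called regions. Small heat shock proteins had 2 of 9, Hspb1 (66.3 and 63.3, then 129 and 91.8) and Hspb8 (6.28 and 10.7, then 15.9 and 13.4).

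TRiC, the cytosolic chaperonin that folds actin and tubulin, had a kept region at each of its 8 subunits. Its subunits differed among themselves. Tcp1 had folds of 13.6 and 18.3 at room temperature and 45.9 and 39.0 at 40 min, groups far apart. Cct7 had the highest room temperature folds of the complex, 57.0 and 57.2, and 66.3 and 52.5 at 40 min, groups that overlapped. The summit counted for Cct7 lay 530 bp from its end and 65 bp from the start of Pradc1. In the other 7 subunits both 40 min folds were above both room temperature folds, beside 79.8% of all kept regions.

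Of mitochondrial chaperones and proteases, 3 of 15 had a kept region, Hspd1 and Hspe1 at their shared one and Hspa9, the mitochondrial HSP70 (18.1 and 11.5, then 24.4 and 15.6). Endoplasmic reticulum chaperones had 4 of 16. They were Serpinh1, a collagen chaperone (51.7 and 48.4, then 81.9 and 80.4), Hsp90b1, Pdia3 and Canx. Canx, a lectin chaperone, had 4.77 and 5.66 at room temperature and 9.14 and 10.0 at 40 min. Ubiquitin stress genes had 5 of 15, Uspl1, Ubqln1, Zfand2a, Ube2d3 and Ubb. Of these Ubb, a polyubiquitin gene, had overlapping groups (47.9 and 46.5, then 64.5 and 42.6). Proteasome subunits had none of 31, and heat shock factors with their feedback regulators none of 10.

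**Figure D2:**
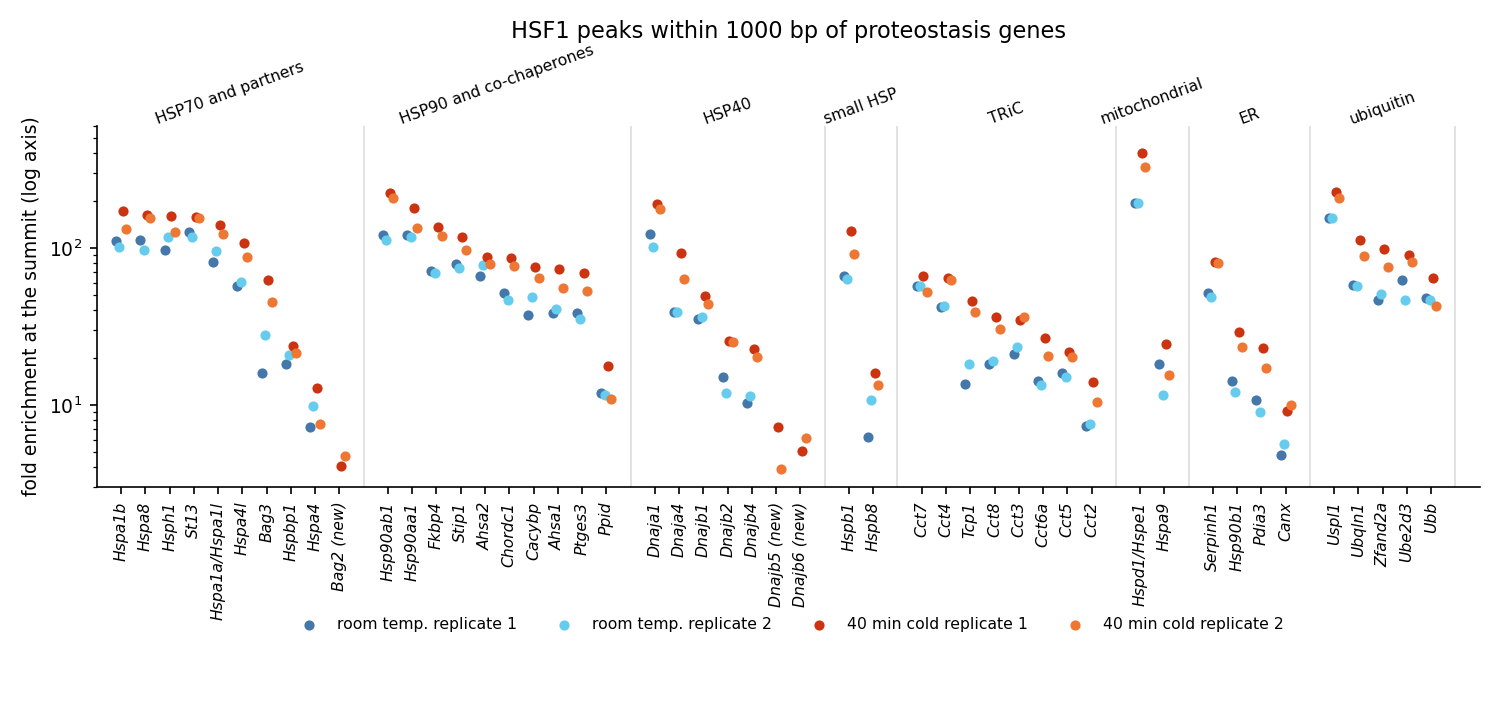
Fold enrichment at the summit (log axis) of every kept or newly called region within 1000 bp of an end of a gene in the 8 proteostasis lists, with 1 point per library. Genes sharing a region are drawn once, Bag2, Dnajb5 and Dnajb6 have 40 min points alone, and at Tcp1 and Bag3 the 40 min points stand well above the room temperature points.

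Across all kept regions, folds were higher at 40 min in most. Both 40 min folds were above both room temperature folds in 603 of 756 (79.8%) and below both in 11 (1.46%). The median log2 difference was 0.64, a ratio of 1.56. Single pairs of libraries across the groups had median ratios of 1.43 to 1.73, while replicate 2 over replicate 1 was 1.07 at room temperature and 0.871 at 40 min. The median log2 difference was 0.65, 0.60, 0.69 and 0.64 in 4 groups of equal size ordered from the strongest to the weakest regions at room temperature. Of the 45 kept regions at proteostasis genes, both 40 min folds were above in 40 and below in 0, with a median ratio of 1.62. In fragments above background, which also depend on depth, both 40 min libraries were above both room temperature libraries in 348 kept regions and below in 25. Folds of separate libraries rest on inputs not known to be the same, so these are side by side values without a test.

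The 11 kept regions with lower folds in both 40 min libraries included 2 within 1000 bp of a gene end. Mtpn, which encodes the actin regulator myotrophin, had 5.96 and 5.66 at room temperature and 4.09 and 4.24 at 40 min. Lsm2, which encodes a subunit of an RNA-binding ring, had 5.58 and 6.05, then 4.83 and 4.73. Those 2 were named after their values were seen.

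**Figure D3:**
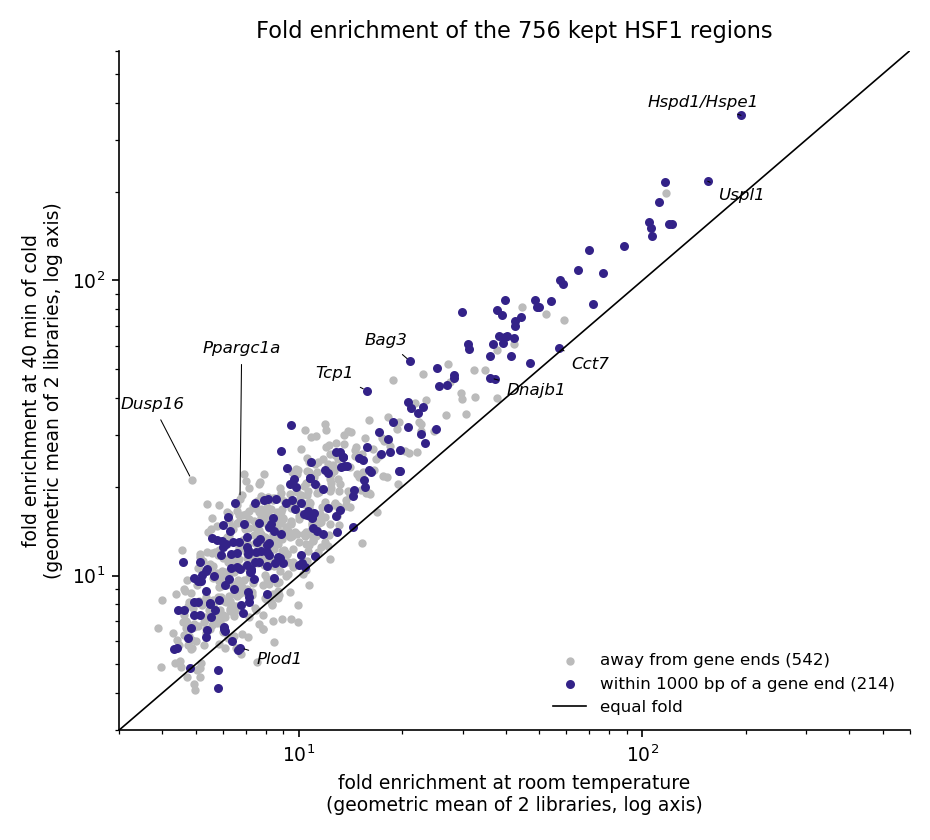
Fold enrichment of the 756 kept regions at 40 min of cold (y) against room temperature (x), with the line of equal fold. Values are geometric means of 2 libraries on log axes. Points below the axis limits, among them the region nearest Gm2244, are not seen. Most points lie above the line, with a median ratio of 1.56, and Hspd1/Hspe1 is the highest point in both conditions.

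Ranks within each library do not depend on a common scale. Each kept region was ranked by its fold among the 756 in each library. Both 40 min ranks were better than both room temperature ranks in 195 regions (25.8%) and worse in 197 (26.1%). The proteostasis regions were also split, 11 of 45 better and 11 worse. Better ranks at 40 min were found at Tcp1, Cct8, Bag3, Dnaja4, Dnajb4 (its region beside Fubp1), Fkbp4, Hsp90ab1, Hspb1, Hsp90b1, Canx and Ubqln1. Worse ranks were found at Cct4, Cct5, Cct7, Hspa4, Hspbp1, St13, Dnajb1, Hsp90aa1, Ahsa2, Ppid and Ubb. Without room temperature replicate 1, where 3 libraries remain, the counts were 396 better and 380 worse of 1028 regions, and without replicate 2 they were 306 and 337 of 802.

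Of the 10 kept regions that climbed most in rank, 1 lay within 1000 bp of a gene end. The first lay inside Dusp16, a phosphatase of stress-activated MAP kinases, 4083 bp from an end (chr6:134802554-134803531). Its folds were 4.05 and 5.86 at room temperature and 24.6 and 18.1 at 40 min, from 16 and 29 fragments to 101 and 64. Next were regions nearest Itgb8, an integrin subunit (5.72 and 5.08, then 16.9 and 18.1), inside P4ha1, a collagen prolyl hydroxylase (5.01 and 6.83, then 18.6 and 16.1), and nearest Hsf2bp, which binds HSF2 (5.12 and 6.08, then 16.4 and 15). Gnb1, Trak1, Fbxo42, Lamb1, Sccpdh and Syn2 were the nearest genes of the other 6, of which Fbxo42 had its summit 402 bp from a gene end. In each of the 10 regions the ranks of the groups did not overlap, which the choice by rank fixes. Both 40 min folds were also above both room temperature folds in each, beside 79.8% of all kept regions.

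The 10 kept regions that dropped most in rank lay away from gene ends. In 4 of them, those nearest Fermt2, Ccnd1, Bsg and Uspl1, both 40 min folds were below both room temperature folds, and in the other 6 the groups overlapped. The 6 were nearest Pik3r1, Crcp, Slc39a10, Sgms1, Zdhhc11 and Jun, and distances of the 10 were 1298 to 346220 bp. The region nearest Fermt2, which encodes an integrin activator, had 8.34 and 11.9 at room temperature and 7.25 and 6.68 at 40 min. The one nearest Sgms1, a sphingomyelin synthase, had 10.5 and 14.4, then 11.4 and 11.4. A separate kept region 130 bp from an end of Jun, an AP-1 subunit, had 24.1 and 16.2, then 21.7 and 23.4, with worse ranks at 40 min.

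Thermogenic genes had no kept, newly called or lost region within 1000 bp of an end (0 of 28), where the shares of all protein-coding genes were 1.15% for kept and 0.265% for newly called regions. At such shares a count of 0 in a list of this size is near the background, here and in the other lists with none. Inside Ppargc1a, the coactivator of mitochondrial biogenesis, the strongest kept region had better ranks at 40 min (folds of 5.96 and 7.61, then 15.2 and 21.7). Newly called regions also lay inside Ppargc1a, with 40 min folds of 6.50 and 7.24 at one and 6.06 and 7.71 at another, and inside Prdm16 (10.6 and 7.79). Kept regions inside Prdm16 (6.91 and 8.98, then 14.5 and 11.7) and Ebf2 (4.29 and 5.08, then 9.18 and 8.63), factors of brown fat identity, also had higher folds in both 40 min libraries. Not every member of the list did. A kept region inside Kcnk3 had overlapping groups (5.72 and 8.98, then 6.77 and 7.79) and worse ranks at 40 min. Near Ucp1 a single library, 40 min replicate 1, had a peak, 4668 bp away with a fold of 3.62. Txnip, whose product restrains glucose uptake, had a region inside the gene with folds of 4.30 in room temperature replicate 2 and 3.87 and 5.01 at 40 min. No region of the 4 libraries lay in or within 5000 bp of Dio2, Pparg, Cebpa or Hsf1. Markers of leukocytes (14 genes) and skeletal muscle (16 genes), and a set of 16 olfactory or vomeronasal receptor genes, had no kept or newly called region near an end. Of 15 endothelial genes, Tie1, a receptor of vessel endothelium, had a kept region, and Flt1 and Mmrn2 newly called ones.

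Newly called regions were weak beside kept ones. The class rule favours this, because kept regions also had to be called in both room temperature libraries. Their median folds were 6.28 and 6.06 in the 40 min libraries, against 15 and 12.6 for kept regions. The lower of the 2 folds had a median of 5.57 and reached 16.7 at most. In 95 of 409 (23.2%) it was at least 7.15, double the smallest fold listed at the common background in room temperature replicate 1 (3.58). In 14 (3.42%) it was 10 or more.

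Places of the newly called and kept regions were set side by side. Within 1000 bp of a gene end were 52 of 409 (12.7%, Wilson 95% interval over regions 9.83 to 16.3) and 214 of 756 kept regions (28.3%, 25.2 to 31.6). The intervals cover counting error only. Inside genes but farther from an end were 47.2% of newly called and 38.8% of kept regions, and 13.9% and 9.92% lay over 50 kb from any protein-coding gene end and outside genes. Median distances were 13770 and 7970 bp. Regions of like strength were also compared. At a lower 40 min fold of 7 to 10, 8 of 89 newly called regions (8.99%) and 33 of 135 kept regions (24.4%) were near a gene end, and at 5 to 7 the shares were 11.8% and 19.8%. Over all peaks of a library the share near a gene end was 26.2% and 23.7% at room temperature and 20.7% and 21.2% at 40 min, a difference of −4.03 percentage points (two-sided exact permutation test, p = 0.333, n = 2 each). With the 919 strongest peaks of each list that difference was −0.871 (p = 0.667, exact permutation test, n = 2 each).

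**Figure D4:**
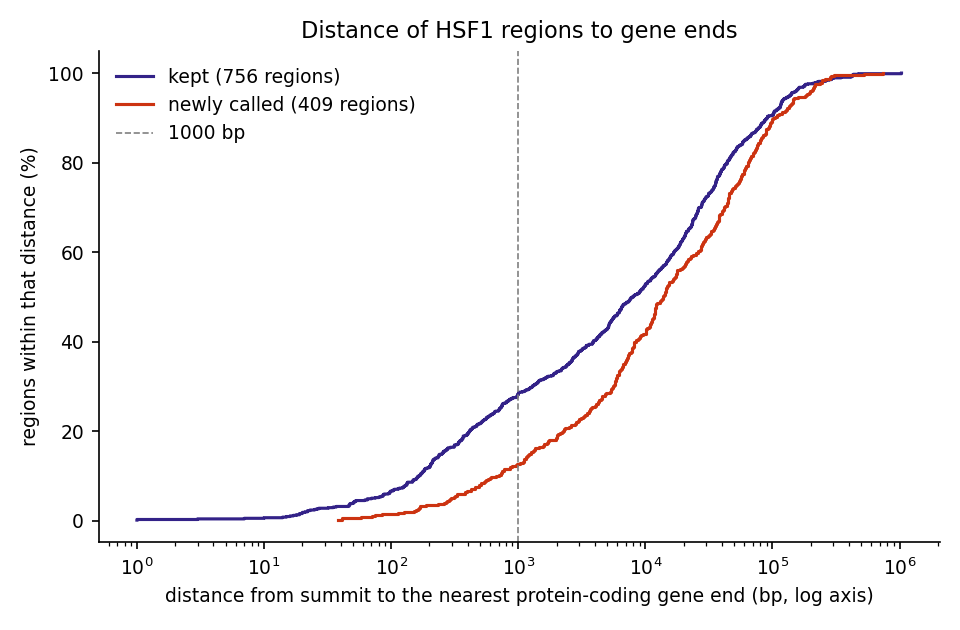
Percent of kept (blue) and newly called (red) regions whose summit lies within a given distance (x, bp, log axis) of the nearest protein-coding gene end, with a dashed line at 1000 bp. At that line the kept curve is at 28.3% and the newly called curve at 12.7%.

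The 15 leading newly called regions at gene ends lay near genes outside protein folding. The first 5 were near Rhou, a small GTPase (folds of 11.4 and 9.46 at 40 min), between Tubgcp4 and Zscan29 (14 and 8.91), near A930018P22Rik (11.8 and 8.35), near Atf1, a CREB family factor (10.6 and 8.24), and near Mboat2, a lysophospholipid acyltransferase (7.97 and 9.46). The first gave 46 and 33 fragments at the summit. The next were 1700007K13Rik with Mrps2, Traf6, Zfp12, Mmrn2, Glt28d2, Wnt1, Btd, Pafah2, Etnk2 and Gm35078 with Mapk1ip1l, with folds from 5.57 to 9.74. Among these, Traf6 is a ubiquitin ligase of immune signalling and Wnt1 a secreted morphogen.

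Of the 537 listed genes, 10 (1.86%) had a newly called region near an end, against 0.265% of all protein-coding genes. The 3 proteostasis genes were Bag2, an HSP70 cofactor (4.11 and 4.73), Dnajb5 (7.25 and 3.90) and Dnajb6 (5.07 and 6.12), all under a fold of 8. Atf1 and Crem (5.56 and 5.01) belong to cAMP response factors, Mt1 (4.70 and 5.48) encodes a metallothionein, Rps18 (6.04 and 4.17) and Rpl15 (4.17 and 4.45) encode ribosomal proteins, and Flt1 (4.35 and 4.73) a VEGF receptor. The Rps18 region, 241 bp from its end, was the same region as the one shown above for Vps52. The other was Mmrn2, given above. With lists of equal length 1 of the 10, Atf1, was left.

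The 10 leading newly called regions away from gene ends had folds of 11.1 to 19.3, and those of the 15 at gene ends ran from 5.57 to 14. The first lay 2928 bp from Depp1, a FOXO target linked to autophagy, inside Rassf4 (chr6:116647430-116648215, folds of 16.7 and 17.1, 70 and 62 fragments). The next were nearest Ctif, a translation factor (16.4 and 15.9), Gmpr, a GMP reductase (19.3 and 14.2), and Tectb (14.6 and 12.9), followed by Ezr, Lyrm4, Adgrd1, Mylk, Apbb2 and Nisch (11.1 to 14). The region inside Slc2a4, the insulin-responsive glucose transporter, 2270 bp from its end, had 6.77 and 5.84.

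**Figure D5:**
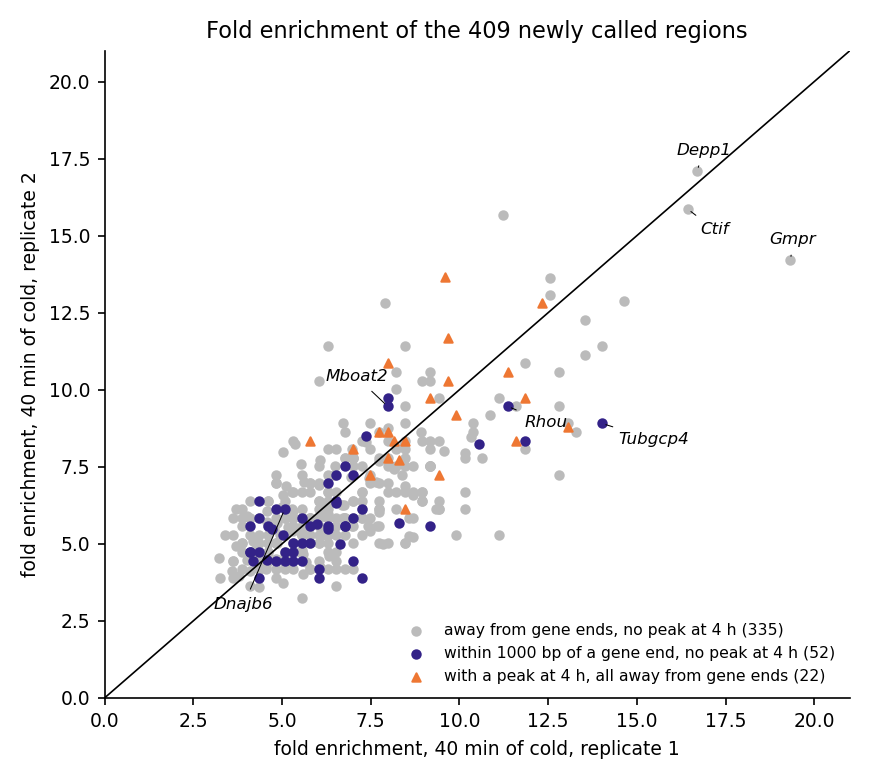
Fold enrichment of each of the 409 newly called regions in 40 min replicate 2 (y) against replicate 1 (x), with the line of equal fold. The regions nearest Depp1, Ctif and Gmpr are the strongest, and the 22 regions with a 4 h peak (triangles) all lie away from gene ends. Of the 52 regions at gene ends, 45 had a lower fold below 7.15.

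The 5 lost regions were all weak. One lay 225 bp from an end of Pik3r2, a regulatory subunit of PI3-kinase (chr8:70776754-70777218, folds of 4.92 and 5.05, 20 and 25 fragments). One lay inside Mgat5b (4.29 and 5.27), and the others were nearest Tril (5.24 and 3.91, 19723 bp), Xxylt1 (4.05 and 4.88, 133794 bp) and Eif4g2 (5.48 and 4.10, 157680 bp). Each had a peak in both second wild type libraries at 40 min and in both knockout libraries. Of regions that were not kept, newly called or lost, 97.9% had a peak in both second libraries and 97.1% in both knockout libraries. The number lost was 93 without room temperature replicate 1, 32 without room temperature replicate 2, 41 without 40 min replicate 1, 8 without 40 min replicate 2 and 9 with summits matched within 200 bp.

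The libraries outside the comparison had not been used to define the classes. At 4 h of cold, whose lists held only 123 and 351 peaks, 276 of 756 kept regions (36.5%) and 22 of 409 newly called regions (5.38%) had a peak in at least 1 library. With lists of equal length the shares were 43.6% (263 of 603) and 18.9% (18 of 95). Of the kept ones, 98 were in replicate 1 and 274 in replicate 2, and of the newly called ones, 3 and 22. At a lower 40 min fold of 7 to 10 the shares were 14.8% of kept and 20.2% of newly called regions, and at 10 to 20 they were 35.7% of 342 and 2 of 14. The newly called regions with a 4 h peak were all away from gene ends (22 of 357, 6.16%), with 0 of the 52 at gene ends. They included regions nearest Lamc1, Tbl1xr1 and Nisch, which had a peak in both 4 h libraries. Of kept regions, 82 of 214 near a gene end and 194 of 542 away had one. Newly called regions with a lower 40 min fold of at least 7.15 had a 4 h peak in 19 of 95. The weaker ones had one in 3 of 314. Of the 52 at gene ends, 7 were in the stronger set and 45 in the weaker, so place and strength were not separated. In the second wild type pair at 40 min, with 12644 and 14583 peaks, 755 kept and 409 newly called regions had a peak in both libraries, and in the knockout pair 755 and 408. The difference in list length cannot be told apart from binding in these comparisons.

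Heat shock elements were looked for where a summit lay in a RefSeq promoter window, 250 bases before to 50 after an annotated start, which held 94 kept, 14 newly called and 1 lost region. The windows leave out chromosome 18 and cover 79.9% of protein-coding genes. An element of 3 units was present in 17 kept regions (18.1%), 2 newly called regions (14.3%) and not at the lost one, against 0.603% of 32815 windows. Facing pairs were present in 60.6%, 50% and 15.1%, in the same order without the lost region. A region can lie in more than 1 window, which raises its chance of a match. Where a 3-unit element was present, its centre lay a median of 24 bp from the summit in kept regions, within 50 bp in 88.2%. Kept regions with folds of at least 20 in both room temperature libraries had it in 6 of 22, and the other kept regions in 11 of 72. Besides Hspe1 the kept regions with it included the promoters of Ccnd3, a cyclin, Nr1h2, a liver X receptor, Aqp7, the glycerol channel of fat cells, and Slc29a1, a nucleoside transporter. These 4 were named after the motif search, and a match describes letters, not a bound site.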

How the data were processed

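HSF1 ChIP-seq peaks of mouse BAT were used from 4 libraries in 2 groups. The submitters' processing notes name MACS2 2.2.7.1, deepTools 3.4.3, SAMtools, BWA 0.7.17 and Trim Galore 0.6.0, and the build GRCm38.p6 (mm10). The sources used here do not give filters or the input behind each list. The authors deposited 1 narrow peak list per library, called on single libraries, so replicates could be compared. For each peak the deposited lists hold a linear ratio, the fold enrichment at the summit. They also hold the −log10 p-value and −log10 q-value of each peak as deposited by the authors. A deposited score column was not used.

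Repeated entries of 1 interval were merged into 1 peak. Fold in a region is that of its strongest peak. Fragments k and background b were solved from fold = (k + 1)/(b + 1) and the Poisson p-value, the MACS2 definitions, within 0.01%. This step was added after seeing the data. Gene ends are those of 21887 protein-coding genes of RefSeq GRCm38.p6 in a table without strand, so either end within 1000 bp counts as near, in place of the planned gene start. Gene starts from the promoter table were an added alternative. Of 540 listed symbols in 29 lists, 537 matched. The members and lists were chosen with earlier results of these data known. Named regions are the 10 leading kept ones (1 of them is not reported here), 15 newly called ones at gene ends and 10 away, all lost ones, the 10 largest climbs and falls of rank, list members with a peak, and 7 genes of brown fat and HSF1 biology. Prdm16, Ebf2, Kcnk3, Slc2a4, Tie1, Vps52, the second Jun region and the regions under other observations fall outside this rule. They were chosen after their values were seen. Python 3.11.15, SciPy 1.17.1 and statsmodels 0.14.6 were used, and region classes, fragment recovery and the motif search were tested on made-up data. Alternatives were list length, thresholds, overlap rules, distances, rank measures, single libraries left out and a replicate block.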

Additional observations from a re-analysis of the deposited data

How the results depend on the processing

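Peak number was higher at 40 min under each threshold tried, with log2 differences of 0.79 to 0.89, and 0.62 to 1.09 with single libraries left out. With the replicate number as a block the difference was 0.86, with p = 0.500 (exact paired permutation test, n = 2 pairs, the smallest it can give), and for the share near a gene end it was −4.03 with p = 0.500. Replicate differences of the groups had a correlation of −0.108 over 756 kept regions, and crossing the numbers gave the same p. The share near a gene end differed by −5.28 to −2.78 percentage points with single libraries left out. With lists of equal length 95 regions were newly called and 57 lost, 9.47% of the newly called lay near a gene end, 18.9% of them had a 4 h peak, and 1 listed gene had a newly called region. Of the 95, 30 had a peak of 1 room temperature library in the full lists. A fold of 10 in both 40 min libraries left 14 newly called regions, and matching summits within 200 bp gave 9 lost ones. Leaving out single libraries gave 455 to 1058 newly called, 8 to 93 lost and 761 to 1028 kept regions, 14.2% to 16.2% of newly called and 25.2% to 28.2% of kept regions near a gene end, 269 to 396 better and 270 to 380 worse ranks, and 633 to 861 kept regions with higher folds. In each case fewer lists had to hold or lack a peak. At 500 bp 8.07% of newly called and 21.7% of kept regions were near a gene end, at 5000 bp 28.6% and 42.7%, and with gene starts 17.25% and 30%. At 5000 bp 18 listed genes had a newly called region. Both 4 h libraries had a peak in 0.733% of newly called regions. Fragments above background were higher in 348 kept regions, not 603. With 1 mismatch allowed the 3-unit element was in 64.9% of kept promoter regions and in 7.21% of all windows. The added settings (fold of 5 or 10, gene starts, fragments, crossed numbers) were chosen after seeing the data. Regions at 11 to 15 fragments lie at the limit of what each list could hold.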

Other observations

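Genes of collagen folding and hydroxylation, outside the proteostasis lists except for Serpinh1, had kept regions within 1000 bp of an end at 4 of 15 members (26.7%). The share of all protein-coding genes was 1.15%. P4ha1, a collagen prolyl hydroxylase, had folds of 36.0 and 44.2 at room temperature and 90.6 and 81.3 at 40 min, with better ranks at 40 min. P4ha2, a related subunit, had 6.61 and 8.84, then 16.4 and 13.9. Plod1, a lysyl hydroxylase, had 5.48 and 8.29, then 5.56 and 5.84, with worse ranks at 40 min. Of 17 methionine, serine and one-carbon enzymes, 2 (11.8%) had a kept region within 1000 bp of an end. Mat2a, which makes S-adenosylmethionine, had 44.6 and 40.4, then 71.8 and 73.5, and Psph shared its kept region with Cct6a. Near Dusp6, a phosphatase of ERK, a kept region 3126 bp from an end had 15.2 and 23.3, then 52.2 and 40.4, with better ranks at 40 min.

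A newly called region 3001 bp from an end of Hsp90aa1 (folds of 11.6 and 8.35) lay beside the kept one at that gene, and had a fold of 7.5 in 4 h replicate 2. Among the kept regions, the one with the lowest 40 min folds was nearest Gm2244 on chromosome 14, 117448 bp away. Its room temperature folds were 1.5 and 1.46, and those at 40 min 1.41 and 1.43. Its summits held 719 to 1130 fragments over a background of 504 to 773, far above the 2.59 to 4.12 most common elsewhere. In kept regions with 1 peak per library, summits of 2 libraries lay a median of 24 to 29 bp apart, within and between the groups.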
